A study of Homo sapiens with 6 samples.

Results

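The translation initiation factors are the proteins that bring the initiator tRNA, the small ribosomal subunit and an mRNA together and release the assembled ribosome at a start codon. Their genes were taken from the count table as every symbol that begins with EIF and a digit from 1 to 6, leaving out the eIF2 kinases, symbols that end in P and digits, and antisense or divergent transcripts. Of 141 such EIF symbols among the 54261 symbols of the table, 48 were members. The ending P and digits removed 85 symbols. Of these, 3 are not pseudogenes but the genes of the eIF4E-binding proteins, EIF4EBP1, EIF4EBP2 and EIF4EBP3, which are described beside the members and not counted with them.

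RNA was sequenced in 6 libraries of an established lung cancer line named PC9/GR, and the labels do not spell out the suffix. In 3 of them the cells had received a small interfering RNA against MYLK-AS1 (si-MYLK-AS1, the knockdown), and in the other 3 an siRNA named si-NC (the control). MYLK-AS1 is a long non-coding RNA transcribed antisense to the MYLK gene. The series title speaks of drug resistance and of glutamine use, and the comparison asks which transcripts differ when MYLK-AS1 is lowered. All libraries come from 1 cell line, and neither the siRNA sequences, the number of siRNAs, the dose nor the time of harvest is given in the sources used here.

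Initiation runs in steps. The GTPase eIF2 carries the initiator tRNA to the small subunit, and the exchange factor eIF2B reloads eIF2 with GTP. The scaffold eIF3 and the small factors eIF1, eIF1A and eIF5 prepare and position that subunit. The cap complex eIF4F, made of the cap-binding protein eIF4E, the RNA helicase eIF4A and the scaffold eIF4G, attaches it to the mRNA, and eIF5B joins the large subunit. Phosphorylation of eIF2 by stress kinases and sequestration of eIF4E by its binding proteins are the best known brakes on the process, and eIF4E is widely studied as a growth-promoting factor in cancer.

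Library totals ran from 7551303 to 11055408 reads. A level is given in CPM, the reads of a gene scaled to a common library size with TMM factors, and it is a share of the library, so a change in total RNA per cell or in cell number would not show. MYLK-AS1 had 0, 0.524 and 0.546 CPM in knockdown replicates 1 to 3, against 2.22, 1.54 and 1.74 CPM in control replicates 1 to 3, a log2 fold change of -2.43 (adjusted p = 0.00326, SE 0.60). These levels rest on few reads, 0, 5 and 4 in the knockdown and 20, 16 and 19 in the control, so the size of the fall is uncertain. Of the 10 epithelial and lung markers 8 were tested, and KRT7, KRT8, KRT18, CDH1 and EPCAM fell (log2 fold changes of -0.54, -0.67, -0.78, -1.11 and -1.36), KRT19 rose (0.37, adjusted p = 0.00816), and EGFR (0.47) and NAPSA (0.061) did not pass the test. EPCAM had few reads, 4 to 7 in the knockdown and 14 to 16 in the control. EGFR had 17 to 38 reads, NAPSA 8 to 25, NKX2-1 0 to 10 and SFTPB 0 reads in each library. The summed level of the 10 markers, most of it from KRT7, KRT8 and KRT18, was 7626 to 8230 CPM in the knockdown and 11849 to 13871 CPM in the control, and that of 8 markers of other cell types was 47.0 to 49.4 CPM and 54.0 to 70.4 CPM. The part of either shift in the values of the initiation factors was not tested. No label states that the 3 repeats of a group were separate cultures, and the spread behind each p-value may therefore be technical. All p-values of single genes come from edgeR's quasi-likelihood test, adjusted by the Benjamini-Hochberg method over the 15391 genes tested, and a gene is said to have risen or fallen where the adjusted p was below 0.05.

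Most initiation factor genes, 32 of the 46 tested, had a positive log2 fold change. Of the 48 members, 46 passed the filter on low counts, and of these 16 rose, 4 fell and 26 did not pass the test. The share called, 43.5%, was close to the 42.0% of all tested genes. The directions were less even. Rises made up 34.8% of the tested members against 21.3% of all tested genes, and falls 8.70% against 20.7%. The median log2 fold change was 0.15 over the members and -0.00050 over all tested genes. The CPM of the groups did not overlap for 32 members, 69.6%, against 52.2% of all tested genes, and 23 of the 32 were higher in the knockdown. The summed level of the 46 genes was 8404, 8450.4 and 8982 CPM in knockdown replicates 1 to 3, against 7408, 7518 and 7567 CPM in control replicates 1 to 3. The sums of the groups do not overlap. Members of 1 complex are not independent of each other, and these counts are descriptions. Of the 48 members, EIF1AY is counted in them but its level is not given here, and EIF3C and EIF4E1B did not pass the filter.

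**Figure D1:**
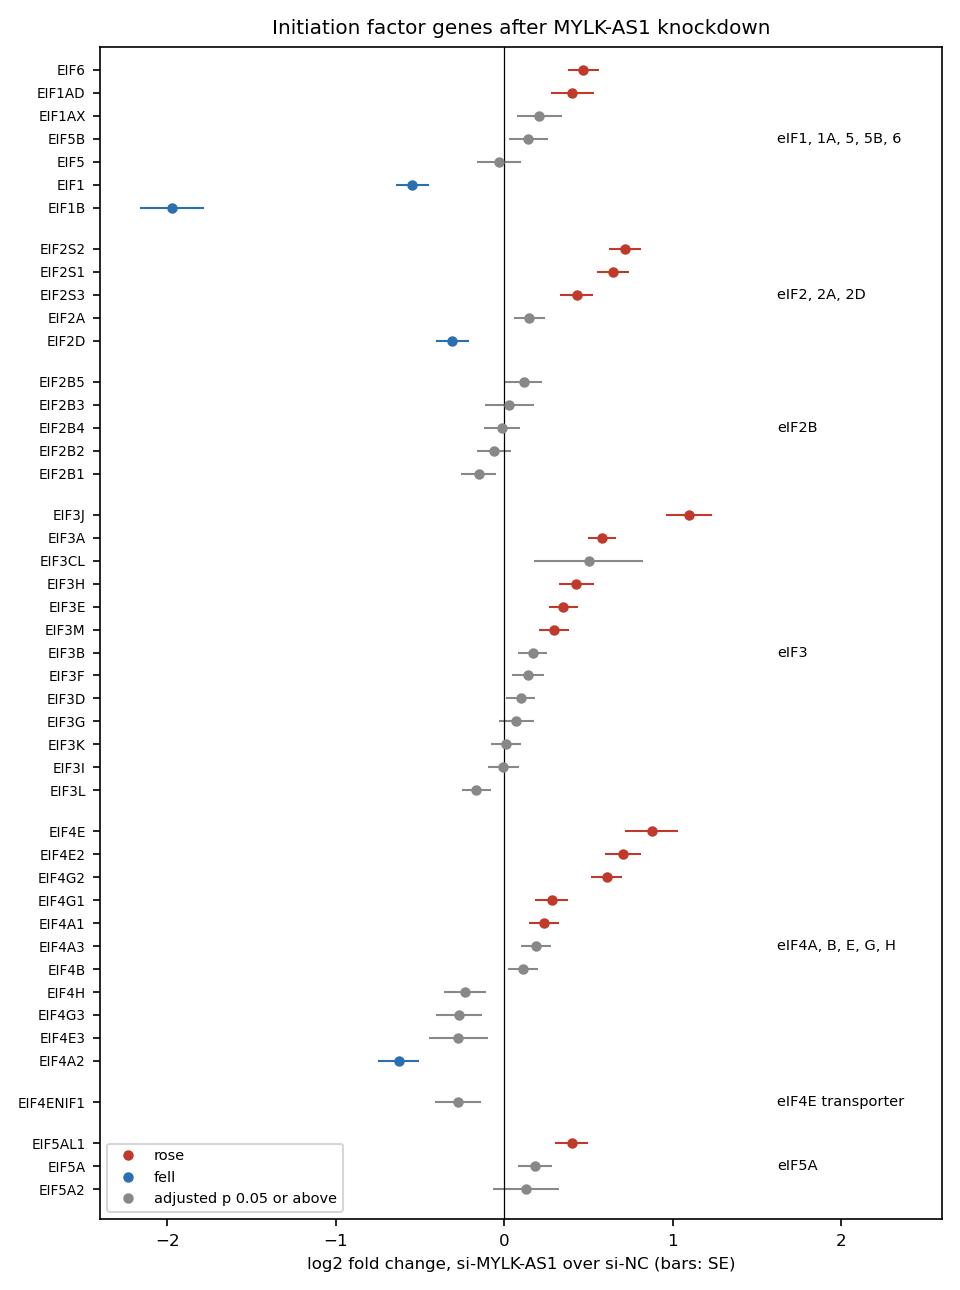
Log2 fold change of the tested initiation factor genes, si-MYLK-AS1 over si-NC (x axis; points, estimates from 3 libraries a group; bars, SE), in rows grouped by the factor they belong to, EIF1AY left out. EIF1B at -1.97 lies farthest from 0, EIF3J at 1.10 is the highest, and all 5 eIF2B genes lie between -0.15 and 0.11.

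The 3 genes of the eIF2 subunits rose, and none of the 5 genes of its exchange factor eIF2B passed the test. Over all tested genes 21.3% rose and 42.0% were called in either direction. EIF2S1, the alpha subunit that the stress kinases phosphorylate (chromosome 14 from 67359997 to 67386516, plus strand of GRCh38), had 141, 146 and 167 CPM in knockdown replicates 1 to 3, against 98.1, 97.7 and 94.1 CPM in control replicates 1 to 3. EIF2S2, the beta subunit (chromosome 20 from 34088298 to 34112332, minus strand), had 169, 169 and 163 CPM in knockdown replicates 1 to 3, against 94.7, 97.3 and 112 CPM in control replicates 1 to 3. All knockdown libraries lay above all control libraries for both genes. The log2 fold change was 0.65 (adjusted p = 4.01e-05, SE 0.096) for EIF2S1 and 0.72 (adjusted p = 1.28e-05, SE 0.095) for EIF2S2. EIF2S3, the gamma subunit that binds GTP and the initiator tRNA, averaged 246 ± 28.1 CPM in the knockdown and 183 ± 12.02 CPM in the control (SD, n = 3 each), with a log2 fold change of 0.43 (adjusted p = 0.00189, SE 0.098). These 3 calls were kept without any 1 library.

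The eIF2B genes spanned log2 fold changes from -0.15 (EIF2B1) to 0.11 (EIF2B5), with adjusted p-values from 0.264 to 0.937, and in 4 of the 5 the groups overlapped. Over all tested genes the groups did not overlap for 52.2%. Summed over subunits, eIF2 came to 537, 547 and 608 CPM in knockdown replicates 1 to 3, against 389, 372 and 381 CPM in control replicates 1 to 3. The same sum for eIF2B was 259, 270.1 and 283 CPM in knockdown replicates 1 to 3, against 271, 273 and 280.4 CPM in control replicates 1 to 3. The ratio of the sums was 2.08 ± 0.0648 in the knockdown and 1.38 ± 0.0438 in the control (SD, n = 3 each). This ratio was chosen after the values were seen and has no test. Of the factors that can act beside eIF2, EIF2A, a single-chain tRNA-binding protein that is not an eIF2 subunit, had a log2 fold change of 0.15 (adjusted p = 0.207, SE 0.092). EIF2D, which takes part in recycling ribosomes and can deliver tRNA without GTP, fell. It had 63.1, 61.6 and 60.5 CPM in knockdown replicates 1 to 3, against 78.4, 76.5 and 74.7 CPM in control replicates 1 to 3, a log2 fold change of -0.31 (adjusted p = 0.0172, SE 0.098). That call was lost without knockdown replicate 2 (adjusted p = 0.0651), control replicate 1 (0.0682) or control replicate 2 (0.0638).

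Of the factors that position the ribosome at the start codon, both genes that code for eIF1 fell. EIF1B (chromosome 3 from 40309684 to 40312424, plus strand), the paralogue of the main eIF1 gene, changed more than any other member. It had 6.48, 6.39 and 10.6 CPM in knockdown replicates 1 to 3, against 27.7, 28.0 and 34.96 CPM in control replicates 1 to 3, a log2 fold change of -1.97 (adjusted p = 3.52e-07, SE 0.19). Every knockdown library lay below every control library, and knockdown replicate 3 was the highest of its group. EIF1 itself (chromosome 17 from 41688885 to 41692668, plus strand) had 396, 363 and 425 CPM in knockdown replicates 1 to 3, against 593, 518 and 615 CPM in control replicates 1 to 3, a log2 fold change of -0.54 (adjusted p = 0.000198, SE 0.096). EIF1 was the more abundant of the pair in every library, at 109 CPM per kilobase in the knockdown and 159 in the control, against 4.10 CPM per kilobase in the knockdown and 15.8 in the control for EIF1B, per kilobase of annotated exon. The reads of EIF1 per read of EIF1B numbered 60.6, 56.3 and 39.6 in knockdown replicates 1 to 3, against 21.4, 18.5 and 17.6 in control replicates 1 to 3. The difference in the log2 ratio was 1.43, with an exact permutation p of 0.1 (two-sided, 3 against 3 samples, the smallest possible, 0.14 after adjustment over the 7 pairs compared). Transcripts of the pair share no stretch of 50 bases, and EIF1B-AS1, on the opposite strand, overlaps 0.785% of the exon bases of EIF1B.

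EIF1B is also the member whose 3' untranslated region holds all 8 bases of CAGCTTAA. That word was taken up because an earlier look at these same libraries found it commoner among genes that fell. Neither its match to a fallen member nor the share of its genes that fell is therefore independent evidence. In GENCODE release 29, 302 of 9583 scanned genes (3.15%) hold it in their longest 3' untranslated region, and 42.4% of those fell, against 19.3% of the genes without its inner 6 bases AGCTTA. The share that fell was 26.5% for genes with 7 of the 8 bases and 20.8% for genes with only the inner 6. Among the 46 scanned members, 1 holds all 8 bases, 4 hold 7 of them, 6 hold only the inner 6 and 35 hold none. The 5 sites with at least 7 bases, the longest matches among the members, are given with their surroundings. They run 5′ to 3′ on the mRNA strand of GRCh38, with the matching bases in capitals.
EIF1B, chr3:40312323-40312352, plus strand: catgtacgttgCAGCTTAAcaataaaaaaa
EIF1, chr17:41690833-41690862, plus strand: gtggctcactgaAGCTTAAgtgaggatttc
EIF2B1, chr12:123621711-123621740, minus strand: ctgccaaggtgCAGCTTAcgtagttgaggc
EIF4E2, chr2:232581607-232581636, plus strand: tttcactgaggCAGCTTAgagggaatgcct
EIF5, chr14:103341058-103341087, plus strand: tggatgcaacctAGCTTAAcagtataatgc

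The 5 genes did not move alike. EIF1B and EIF1 fell, EIF4E2 rose (log2 fold change 0.71), and EIF2B1 (-0.15) and EIF5 (-0.031) did not pass the test. The EIF4E2 site lies in 2 of its 9 annotated coding transcripts and not in the principal one. The EIF1 site lies in 1 of 3 coding transcripts, the EIF2B1 site in 1 of 4 and the EIF5 site in 3 of 10, principal ones included. The EIF1B site lies in the only coding transcript annotated. The other fallen members, EIF2D and EIF4A2, hold no AGCTTA in this region, and neither do 14 of the 16 that rose. Only the annotated longest region was searched, on the mRNA strand, and whether these cells use it is not known. A match is a description of the letters, and the part of this word in the falls was not tested.

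Among the remaining genes grouped under start codon selection and subunit joining, EIF6 and EIF1AD rose. EIF5, EIF5B, EIF1AX and EIF1AY did not pass the test. EIF6, which keeps free large subunits from joining too early, averaged 372 ± 14.6 CPM in the knockdown and 268 ± 21.6 CPM in the control (SD, n = 3 each), with a log2 fold change of 0.47 (adjusted p = 0.000444, SE 0.09). EIF1AD, a gene named for its eIF1A domain, averaged 43.3 ± 0.975 CPM in the knockdown and 32.8 ± 4.84 CPM in the control (SD, n = 3 each), with a log2 fold change of 0.40 (adjusted p = 0.0176, SE 0.13). Its call was lost without knockdown replicate 2 (adjusted p = 0.0549) or control replicate 3 (0.0629). EIF5, which makes eIF2 hydrolyse its GTP at the start codon, had a log2 fold change of -0.031 (adjusted p = 0.867, SE 0.13). EIF5B, the GTPase of subunit joining, had 0.14 (adjusted p = 0.337, SE 0.11), and EIF1AX, the X-linked eIF1A gene, had 0.21 (adjusted p = 0.217, SE 0.13).

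**Figure D2:**
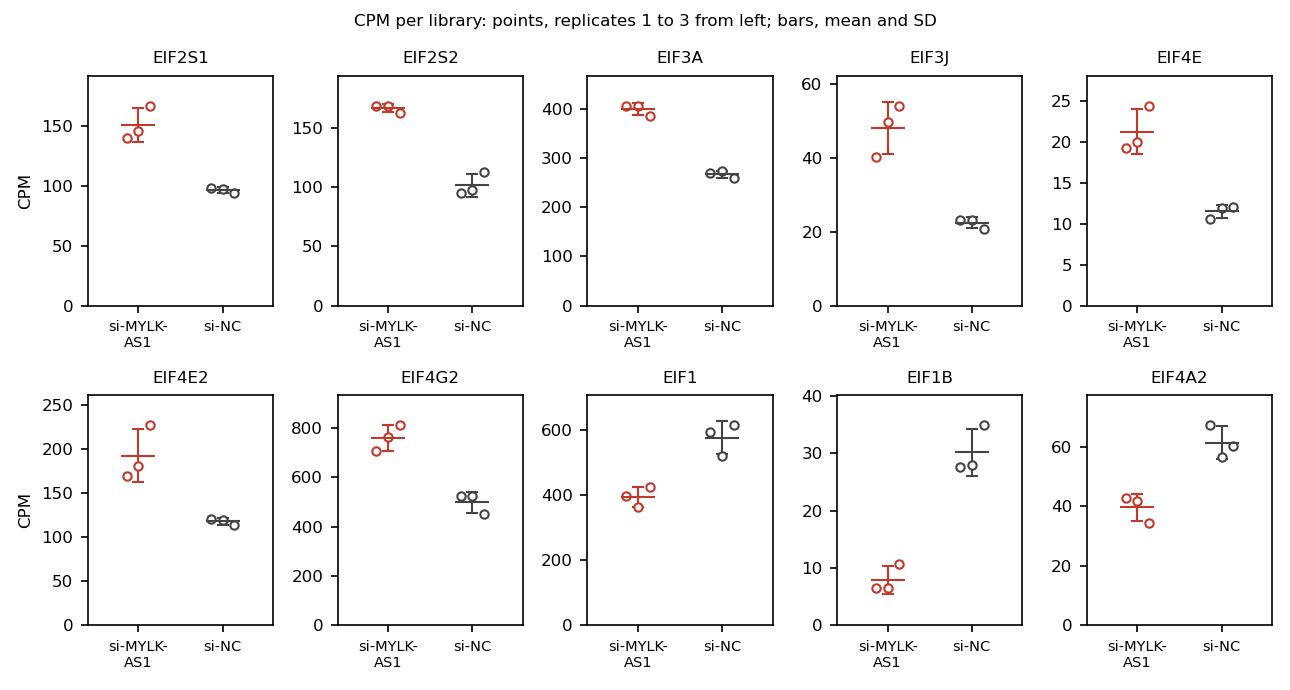
CPM (y axis, from 0) of the 10 members that passed the test with an absolute log2 fold change of at least 0.5, in si-MYLK-AS1 and si-NC libraries (open points, replicates 1 to 3 from left; bars, mean and SD). No group overlaps its counterpart in any panel, with 7 genes higher and 3 (EIF1, EIF1B and EIF4A2) lower in the knockdown. The genes were picked by their test in these same libraries, so this separation is no further evidence. Of all tested genes, 52.2% did not overlap.

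Among the eIF3 subunits, 5 of 13 tested genes rose and none fell, where 42.0% of all tested genes were called. EIF3J (chromosome 15 from 44537057 to 44563029, plus strand), a loosely attached subunit that binds near the decoding site, rose most. It had 40.3, 49.7 and 54.1 CPM in knockdown replicates 1 to 3, against 23.2, 23.2 and 20.7 CPM in control replicates 1 to 3, a log2 fold change of 1.10 (adjusted p = 5.79e-06, SE 0.14). Knockdown replicate 1 was the lowest of its group and still lay above every control library. EIF3A (chromosome 10 from 119033670 to 119080823, minus strand), the largest subunit and a core scaffold, had 406, 407 and 386 CPM in knockdown replicates 1 to 3, against 269, 273 and 259.6 CPM in control replicates 1 to 3, a log2 fold change of 0.58 (adjusted p = 3.3e-05, SE 0.085). EIF3E (log2 fold change 0.35), EIF3H (0.43) and EIF3M (0.30), subunits of the shell around the core, rose by less, with adjusted p-values of 0.00329, 0.00298 and 0.0138. The call of EIF3M was lost without knockdown replicate 2 (adjusted p = 0.0513), control replicate 1 (0.0601) or control replicate 2 (0.0609).

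The other 8 tested eIF3 genes did not pass the test. EIF3B, the second core subunit, averaged 399.6 ± 17.3 CPM in the knockdown and 356 ± 16.9 CPM in the control (SD, n = 3 each), with a log2 fold change of 0.17 (adjusted p = 0.13, SE 0.087). EIF3D (log2 fold change 0.098), which can bind the cap of some mRNAs, EIF3F (0.14), EIF3G (0.071), EIF3I (-0.0058), EIF3K (0.012) and EIF3L (-0.17) had adjusted p-values of 0.129 or more. Per kilobase of annotated exon EIF3I and EIF3K ranked highest of the subunits in both groups. EIF3I stood at 151 CPM per kilobase in the knockdown and 151 in the control, and EIF3K at 141 and 140.0. That order depends on the annotated lengths, 1725 bases for EIF3I and 2798 for EIF3K against 4070 for EIF3D and 9431 for EIF3F. In CPM, without division by length, EIF3I had 260 in the knockdown and 261 in the control, below EIF3D at 310 and 290. Reads counted in pseudogenes, 51.5% of those of EIF3F and its pseudogenes together, are left out. Subunit c is coded by the near-identical copies EIF3C and EIF3CL, and 97.2% of the 50-base stretches of EIF3CL transcripts occur in EIF3C as well. EIF3C was listed with 0 to 3 reads in each library and EIF3CL with 591 to 1572 reads, so how the reads of the pair were assigned is uncertain. EIF3CL had 144, 163 and 80.7 CPM in knockdown replicates 1 to 3, against 69.1, 93.8 and 111 CPM in control replicates 1 to 3, with overlapping groups and a log2 fold change of 0.50 (adjusted p = 0.281, SE 0.32).

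Of the genes of the eIF4E family, EIF4E and EIF4E2 rose. EIF4E (chromosome 4 from 98871684 to 98930637, minus strand), the protein that binds the mRNA cap within eIF4F, had 19.3, 20.0 and 24.4 CPM in knockdown replicates 1 to 3, against 10.6, 11.9 and 11.99 CPM in control replicates 1 to 3, a log2 fold change of 0.88 (adjusted p = 0.00027, SE 0.16). EIF4E2 (chromosome 2 from 232550052 to 232583644, plus strand), a cap-binding relative that does not bind eIF4G and takes part in repressing mRNAs, had 169, 180.5 and 227 CPM in knockdown replicates 1 to 3, against 120.0, 119 and 113 CPM in control replicates 1 to 3, a log2 fold change of 0.71 (adjusted p = 4.58e-05, SE 0.11). The groups of both genes do not overlap, and knockdown replicate 3 was the highest library in each. EIF4E2 was the more abundant of the pair per kilobase of annotated exon, at 26.8 CPM per kilobase in the knockdown and 16.4 in the control, against 1.51 CPM per kilobase in the knockdown and 0.818 in the control for EIF4E. The size of that gap is uncertain. Annotated exons span 14067 bases for EIF4E and 7177 for EIF4E2. Reads counted in pseudogenes, 65.5% of those of EIF4E and its pseudogenes together, are left out. The ratio of EIF4E to EIF4E2 reads differed by 0.18 on the log2 scale (exact permutation p = 0.1, adjusted over 7 pairs 0.14), and by 0.11 without control replicate 1. With pseudogene reads added to each gene, the log2 fold changes were near equal, 0.70 for EIF4E and 0.71 for EIF4E2. The difference in the ratio thus depends on leaving those reads out. The third gene of the family, EIF4E3, had a log2 fold change of -0.27 (adjusted p = 0.225, SE 0.18), and EIF4ENIF1, the shuttling protein that carries eIF4E into the nucleus, one of -0.27 (adjusted p = 0.118, SE 0.14). EIF4E1B was listed with 1 read in knockdown replicate 1 and 0 reads elsewhere.

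Among the scaffolds and helicases EIF4G1, EIF4G2 and EIF4A1 rose and EIF4A2 fell. EIF4G2 (chromosome 11 from 10797050 to 10809110, minus strand), a relative of eIF4G that lacks the eIF4E-binding part, had 706, 764 and 813 CPM in knockdown replicates 1 to 3, against 526, 523 and 449 CPM in control replicates 1 to 3, a log2 fold change of 0.61 (adjusted p = 6.17e-05, SE 0.095). EIF4G1, the main scaffold, had 300.0, 285 and 256 CPM in knockdown replicates 1 to 3, against 242, 250.1 and 200.2 CPM in control replicates 1 to 3, a log2 fold change of 0.28 (adjusted p = 0.0321, SE 0.10). The EIF4G1 call was lost without knockdown replicate 1 (adjusted p = 0.118), knockdown replicate 2 (0.0970) or control replicate 3 (0.103). EIF4G3, its paralogue, averaged 22.3 ± 2.00 CPM in the knockdown and 26.8 ± 1.76 CPM in the control (SD, n = 3 each), with a log2 fold change of -0.27 (adjusted p = 0.118, SE 0.13). Reads of EIF4G1 per read of EIF4G3 numbered 14.6, 12.9 and 10.4 in knockdown replicates 1 to 3, against 9.46, 9.60 and 6.93 in control replicates 1 to 3, a log2 difference of 0.55. EIF4G1 over EIF4G2 differed by -0.33, and by -0.21 without knockdown replicate 3. With all libraries both had an exact permutation p of 0.1, 0.14 after adjustment over 7 pairs.

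EIF4A2 (chromosome 3 from 186783205 to 186789900, plus strand), the less abundant of EIF4A1 and EIF4A2 per kilobase of annotated exon, at 6.47 CPM per kilobase in the knockdown and 10.03 in the control against 57.9 CPM per kilobase in the knockdown and 49.2 in the control for EIF4A1, fell. It had 42.7, 41.7 and 34.5 CPM in knockdown replicates 1 to 3, against 67.4, 56.8 and 60.3 CPM in control replicates 1 to 3, a log2 fold change of -0.63 (adjusted p = 0.000452, SE 0.12). EIF4A1, its more abundant paralogue, had 317, 313 and 294 CPM in knockdown replicates 1 to 3, against 253, 283 and 249 CPM in control replicates 1 to 3, a log2 fold change of 0.23 (adjusted p = 0.0422, SE 0.089). The EIF4A1 call was lost without knockdown replicate 1 (adjusted p = 0.104), knockdown replicate 2 (0.122), control replicate 1 (0.151) or control replicate 3 (0.0763), and the EIF4A2 call was kept in each of those cases. Reads of EIF4A1 per read of EIF4A2 numbered 7.40, 7.49 and 8.50 in knockdown replicates 1 to 3, against 3.75, 4.99 and 4.13 in control replicates 1 to 3. The log2 difference was 0.87 (exact permutation p = 0.1, adjusted over 7 pairs 0.14). Of the exon bases of EIF4A1, 48.6% lie in other annotated genes, among them the readthrough gene SENP3-EIF4A1, and 17.9% of those of EIF4A2, which also hosts small nucleolar RNAs. EIF4A3, the helicase of the exon junction complex, had a log2 fold change of 0.19 (adjusted p = 0.0945, SE 0.089). The helicase cofactors EIF4B and EIF4H had 0.11 (adjusted p = 0.342, SE 0.091) and -0.23 (adjusted p = 0.143, SE 0.12).

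**Figure D3:**
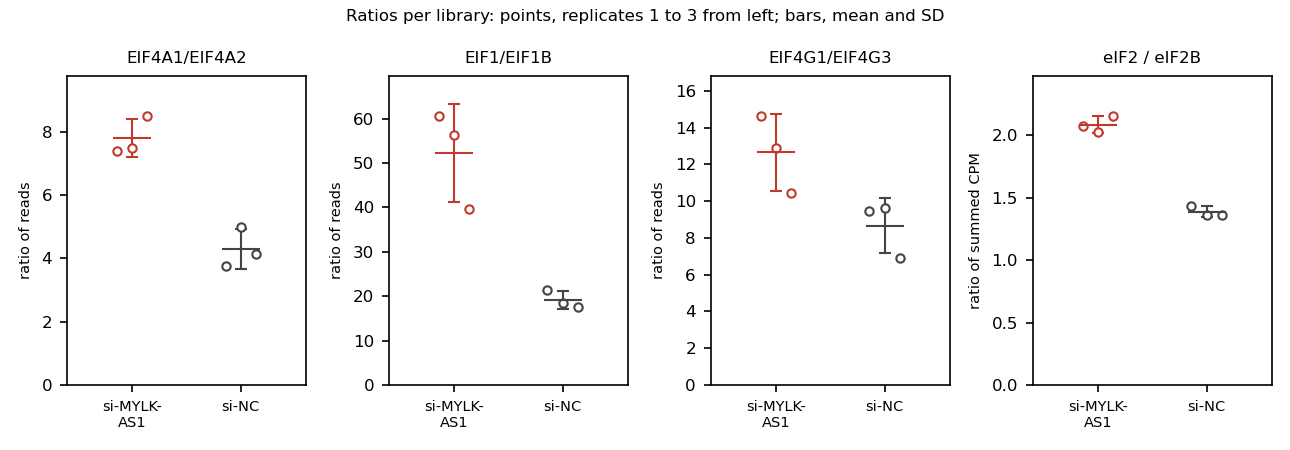
Ratios per library (y axes, from 0) in si-MYLK-AS1 and si-NC (open points, replicates 1 to 3 from left; bars, mean and SD), of EIF4A1 to EIF4A2, EIF1 to EIF1B and EIF4G1 to EIF4G3 reads and of summed eIF2 to summed eIF2B CPM. All 3 knockdown libraries lie above all 3 control libraries in each panel, for example at 7.40 to 8.50 against 3.75 to 4.99 for EIF4A1 to EIF4A2. The pairs shown have the largest positive differences of the 7 compared, and EIF4G1 to EIF4G2, not shown, went the other way (-0.33). No pair had an adjusted exact permutation p below 0.14. The eIF2 to eIF2B ratio was chosen after the values were seen and has no test.

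Many of these genes have processed pseudogenes, intron-less copies whose sequence resembles the parent mRNA, and in this table the pseudogenes were counted on their own. Named pseudogenes of 19 tested members held 60415 reads, and for 9 of those members they held at least 10% of the reads of gene and pseudogenes together. The fits were repeated with these reads added to the parent gene, a step chosen after the data were seen. EIF4H was then lower in the knockdown, at -0.60 (SE 0.099, adjusted p = 0.000107) and past the threshold. Its pseudogene EIF4HP1, with 4080 reads against 2012 of EIF4H itself, fell by 0.79 on the log2 scale (adjusted p = 2.05e-05). Of the 50-base stretches of EIF4HP1, 63.5% occur in EIF4H as well. For EIF4EP2 in EIF4E the share is 82.1%, and for EIF4A1P10 in EIF4A1 33.6%. How reads were assigned between such a pseudogene and its parent is uncertain. EIF4A1 no longer passed the test, at 0.019 (SE 0.085, adjusted p = 0.878). Its pseudogenes held 60.7% of the reads, and the leading one, EIF4A1P10, had a log2 fold change of -0.20 (adjusted p = 0.0758). EIF4E kept its rise, at 0.70 (adjusted p = 0.00025) with 65.5% of the reads in pseudogenes, as did EIF2S2 at 0.66 (adjusted p = 1.51e-05), while EIF4A2 kept its fall at -0.65 (adjusted p = 0.000168). With pseudogene reads added, EIF4A1 per EIF4A2 stood at 14.996, 15.8 and 16.9 in knockdown replicates 1 to 3, against 8.84, 11.0 and 10.2 in control replicates 1 to 3. With the reads of EIF5AL1 also summed with those of EIF5A, 14 genes rose and 5 fell. The rises no longer counted were EIF4A1 and EIF5AL1, which then had no value of its own, and the added fall was EIF4H.

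**Figure D4:**
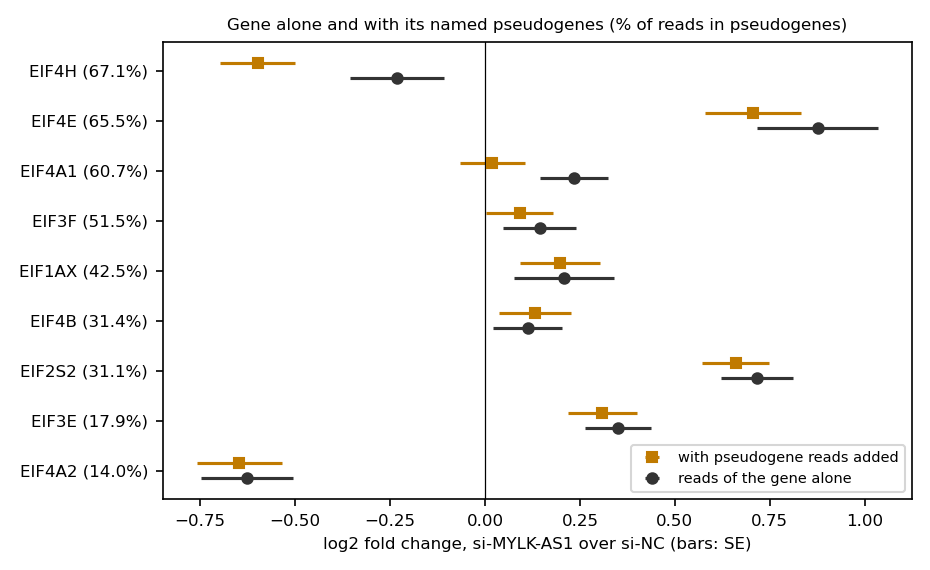
Log2 fold change, si-MYLK-AS1 over si-NC (x axis; bars, SE), of the 9 members with at least 10% of reads in named pseudogenes, from the gene's reads alone (circles) and with the pseudogene reads added (squares). EIF4H moves to -0.60 and EIF4A1 to 0.019, and the other 7 keep their side of the threshold.

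Of the 3 eIF5A genes, EIF5AL1 rose and EIF5A and EIF5A2 did not pass the test. The eIF5A protein carries hypusine, a modified lysine, and helps ribosomes through difficult peptide bonds. EIF5A had 701, 706 and 891 CPM in knockdown replicates 1 to 3, against 644, 691 and 690.1 CPM in control replicates 1 to 3, a log2 fold change of 0.18 (adjusted p = 0.157, SE 0.10). EIF5AL1, an intron-less copy, averaged 328 ± 36.4 CPM in the knockdown and 248 ± 12.6 CPM in the control (SD, n = 3 each), with a log2 fold change of 0.40 (adjusted p = 0.00279, SE 0.096). With the reads of EIF5A, EIF5AL1 and the EIF5A pseudogenes summed, the value was 0.24 (adjusted p = 0.0604). EIF5A2, the paralogue known for amplification in some cancers, had 0.13 (adjusted p = 0.631, SE 0.20), and the EIF5A to EIF5A2 ratio differed by 0.055 (exact permutation p = 0.7, also after adjustment over 7 pairs). DHPS, the enzyme of the first step of hypusine formation, fell. It had 63.1, 59.7 and 67.7 CPM in knockdown replicates 1 to 3, against 92.3, 97.3 and 114 CPM in control replicates 1 to 3, a log2 fold change of -0.68 (adjusted p = 7.41e-05, SE 0.11). DOHH, the enzyme of the second step, averaged 3.63 ± 0.476 CPM in the knockdown and 5.25 ± 0.467 CPM in the control (SD, n = 3 each), with a log2 fold change of -0.53 (adjusted p = 0.0886, SE 0.24).

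The regulators of these factors were counted from lists of other translation genes. Of the eIF4E-binding proteins, which keep eIF4E from eIF4G, EIF4EBP1 had 133, 130.2 and 142 CPM in knockdown replicates 1 to 3, against 84.6, 86.0 and 96.9 CPM in control replicates 1 to 3, a log2 fold change of 0.60 (adjusted p = 8.12e-05, SE 0.096). EIF4EBP2 had 83.3, 89.5 and 97.5 CPM in knockdown replicates 1 to 3, against 70.3, 63.9 and 56.3 CPM in control replicates 1 to 3, a log2 fold change of 0.50 (adjusted p = 0.00124, SE 0.11). Both rose, as EIF4E did, and their ratio to each other differed by 0.094 (exact permutation p = 0.5, adjusted over 7 pairs 0.583). EIF4EBP3 was low, at 4.16 ± 0.600 CPM in the knockdown and 5.02 ± 0.623 CPM in the control (SD, n = 3 each), with a log2 fold change of -0.25 (adjusted p = 0.432, SE 0.24).

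Of 12 genes of the eIF2 kinases, the eIF2 phosphatase and their partners, 6 rose and none fell, a share of 50% against 42.0% of all tested genes. EIF2AK3, the kinase that senses stress in the endoplasmic reticulum, had 44.6, 44.5 and 36.2 CPM in knockdown replicates 1 to 3, against 20.1, 21.0 and 16.1 CPM in control replicates 1 to 3, a log2 fold change of 1.13 (adjusted p = 6.54e-06, SE 0.14). PPP1R15A, the inducible subunit that brings phosphatase to eIF2, had 108, 98.1 and 102 CPM in knockdown replicates 1 to 3, against 51.1, 47.6 and 62.1 CPM in control replicates 1 to 3, a log2 fold change of 0.94 (adjusted p = 3.84e-06, SE 0.11). IMPACT, an inhibitor of the kinase that senses amino acid shortage, rose on the log2 scale by 0.91 (adjusted p = 2.59e-05, SE 0.13), and EIF2AK2, the kinase that senses double-stranded RNA, by 0.48 (adjusted p = 0.00159, SE 0.11). DNAJC3, an inhibitor of eIF2 kinases, rose on the log2 scale by 1.36 (adjusted p = 0.00996, SE 0.39), with few reads, 12 to 42 in the knockdown and 10 to 17 in the control. Its call was lost without knockdown replicate 2 (adjusted p = 0.0781) or control replicate 2 (0.0512). The sixth, PPP1CB, a catalytic subunit, had 0.33 (adjusted p = 0.0105, SE 0.097) and is named after its value was seen. EIF2AK1, the heme-regulated kinase, and EIF2AK4, the kinase that senses uncharged tRNA, had -0.035 (adjusted p = 0.779, SE 0.089) and -0.22 (adjusted p = 0.471, SE 0.23).

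Of 18 genes for elongation and termination, the later steps of translation, 10 rose and none fell, a share of 55.6% against 42.0% of all tested genes. The median log2 fold change was 0.30, against -0.00050 over all tested genes. ABCE1, which splits ribosomes after termination, had 53.1, 69.8 and 79.9 CPM in knockdown replicates 1 to 3, against 28.5, 29.6 and 28.3 CPM in control replicates 1 to 3, a log2 fold change of 1.23 (adjusted p = 2.03e-06, SE 0.14). The release factor genes ETF1 (log2 fold change 0.74, adjusted p = 1.01e-05), GSPT1 (0.49, adjusted p = 0.000321) and GSPT2 (1.06, adjusted p = 0.000327) rose, as did GFM1, a mitochondrial elongation factor gene (0.73, adjusted p = 0.000136). Of 16 tested genes of poly(A)-binding proteins and other helpers of initiation, 5 rose and 1, DHPS, fell, a share of 37.5% against 42.0% of all tested genes. The number that rose was 3 without knockdown replicate 3, control replicate 1 or control replicate 2. BZW1, which mimics part of eIF5, averaged 198 ± 10.9 CPM in the knockdown and 114 ± 6.10 CPM in the control (SD, n = 3 each), with a log2 fold change of 0.80 (adjusted p = 2.26e-06, SE 0.092). The helicase DHX29 (log2 fold change 0.57, adjusted p = 0.000488) and PABPC4 (0.39, adjusted p = 0.00548) rose. PABPC1, the main poly(A)-binding protein gene, was listed with 24 to 31 reads in the knockdown and 8 to 20 in the control, a log2 fold change of 1.10 (adjusted p = 0.0288, SE 0.38). Its call was lost without knockdown replicate 3 (adjusted p = 0.120), control replicate 1 (0.0536) or control replicate 2 (0.153). PABPC3, of the same list, was listed with far more reads, 292 to 513 in the knockdown and 455 to 540 in the control. It had a log2 fold change of -0.14 (adjusted p = 0.370, SE 0.12). How reads were assigned between PABPC1 and PABPC3 is uncertain and was not tested.

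The genes of the mTORC1 pathway, which controls eIF4E through its binding proteins, were listed together with kinases of the cap complex. Calls in this list went both ways. Of 22 tested, 4 rose and 3 fell, a share of 31.8% against 42.0% of all tested genes, and the number that rose was 2 without knockdown replicate 2 or without control replicate 2. With upper quartile factors 2 rose and 5 fell. RRAGA, a GTPase that reports amino acids to mTORC1, rose on the log2 scale by 0.58 (adjusted p = 0.000142, SE 0.098), and SESN2, a leucine sensor, by 0.51 (adjusted p = 0.00608, SE 0.14). DDIT4 averaged 371 ± 14.8 CPM in the knockdown and 566 ± 117 CPM in the control (SD, n = 3 each), with a log2 fold change of -0.61 (adjusted p = 0.000584, SE 0.12), and TSC2 had -0.41 (adjusted p = 0.00522, SE 0.11). The other called genes were named after their values were seen. PDCD4 (0.33, adjusted p = 0.0475) and MKNK2, a kinase of the cap complex (0.29, adjusted p = 0.0333), rose, and LAMTOR2 (-0.35, adjusted p = 0.0264) fell. MTOR itself had -0.32 (adjusted p = 0.0611, SE 0.13), with overlapping groups.

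The upstream sequence of the members was read from RefSeq on GRCh38.p14 and searched for CACGTG, the E-box that the MYC family among other factors can bind and that reads the same on both strands. MYC had 232, 224 and 237 CPM in knockdown replicates 1 to 3, against 146, 143 and 170.0 CPM in control replicates 1 to 3, a log2 fold change of 0.59 (adjusted p = 6.73e-05, SE 0.093). Promoters were matched for 39 of the 48 members. The 250 bases before the RefSeq start held the word in 10 of them, 25.6%, against 9.03% of the 9705 tested genes with a promoter. The 10 comprised 2 of 12 matched members that rose (EIF4E and EIF4G1, 16.7%), 1 of 4 that fell (EIF1B, 25%) and 7 of 23 that did not pass the test (30.4%). The pair with the greatest rise and the greatest fall among them is shown, 5′ to 3′ on the strand of the gene, with the word in capitals.
EIF4E, chr4:98929134-98929383, minus strand: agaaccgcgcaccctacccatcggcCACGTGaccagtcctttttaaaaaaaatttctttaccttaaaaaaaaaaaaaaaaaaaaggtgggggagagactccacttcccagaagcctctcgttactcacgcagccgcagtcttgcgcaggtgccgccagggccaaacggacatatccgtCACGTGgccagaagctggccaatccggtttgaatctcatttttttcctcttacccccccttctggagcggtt
EIF1B, chr3:40309457-40309706, plus strand: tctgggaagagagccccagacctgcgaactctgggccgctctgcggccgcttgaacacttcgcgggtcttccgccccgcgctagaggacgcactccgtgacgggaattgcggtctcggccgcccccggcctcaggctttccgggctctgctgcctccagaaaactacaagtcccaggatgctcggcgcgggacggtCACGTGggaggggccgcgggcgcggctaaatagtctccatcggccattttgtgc

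EIF4E carries the word at 2 places, at -225 and -72 from the start, and EIF1B at 1, at -54, and the genes moved in opposite directions. Its presence says nothing here of whether a factor binds. With so few members in each class, the part of MYC or of this word in the changes was not tested.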

How the data were processed

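The table that the authors deposited holds raw read counts per gene symbol, 1 column for each of the 6 libraries, whose column names are the sample titles. The libraries were Ion Proton ones, per the labels' protocols. The submitters' processing notes name the build GRCh38. How reads were aligned and counted, with which annotation and whether by strand, is not given in the sources used here, and overlapping and antisense genes cannot be told apart. No symbol was blank or a total.

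The counts of all 54261 symbols were fitted with edgeR 4.0.16 in R 4.3.3 (filterByExpr, TMM factors, robust quasi-likelihood F test, two-sided), which tested 15391 genes. The SE is the log2 fold change divided by the square root of F. Ratios of paralogues add 0.5 reads to each gene and were tested with an exact permutation test in scipy 1.17.1. Alternatives were other scaling factors, filters and thresholds, DESeq2 1.42.0, limma 3.58.1 (voom), each library left out, and the repeat number as a block. Adding pseudogene and copy reads to the parent gene was chosen after seeing the data. A count of 0 is taken as at most 3 reads, which is 0.274 to 0.410 CPM and covers counting error only. Replicate libraries differed by more than sampling noise (chi-square per degree of freedom of 2.37 or more). The fit was tested on simulated data.

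The members and lists were chosen with earlier results of these data known. All members are accounted for, those past the threshold are named, and values of every library are given for those with an absolute log2 fold change of at least 0.5 and for EIF4E, EIF4A1, EIF4A2, EIF4G1 and EIF2S1. From each list the 4 genes with the lowest p and those with a change of at least 1 are named, and others were chosen after their values were seen. Gene positions, exon lengths and 3' untranslated regions come from GENCODE release 29, and the untranslated regions were scanned where they had at least 50 bases and the gene a mean of at least 5 CPM.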

Additional observations from a re-analysis of the deposited data

How the results depend on the processing

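Of the 20 members called, 15 kept their call under all alternatives run, except that EIF5AL1 was summed with EIF5A where copies were added together and has no value of its own there, and EIF1AD, EIF2D, EIF3M, EIF4A1 and EIF4G1 did not. EIF4A1 and EIF4G1 also lost it with upper quartile factors (adjusted p = 0.0713 and 0.0527), with library totals alone (0.0728 and 0.0589) and with a filter of 5 CPM in 3 libraries (0.0677 and 0.0543). No member that was called changed direction. The number that rose was 12 to 18 and the number that fell 3 to 4 when 1 library was left out, and 12 and 3 at an adjusted p of 0.01. With DESeq2 and with limma-voom 16 rose and 4 fell. For the mTORC1 list, the number that rose was 2 with upper quartile factors, with the 5 CPM filter and at an adjusted p of 0.01, against 4, and 2 to 4 with 1 library left out. The number that fell was 5 with upper quartile factors, with library totals alone and with the 5 CPM filter, against 3. For the helpers of initiation, 3 rose with the 5 CPM filter and at an adjusted p of 0.01, against 5, and 3 to 5 with 1 library left out. The cause was not tested. PABPC1 missed the threshold with DESeq2 (adjusted p = 0.0502). The EIF4EBP1 to EIF4EBP2 difference ran from -0.019 to 0.24 and the EIF5A to EIF5A2 difference from -0.053 to 0.13 with 1 library left out, and the signs turned without control replicate 1 for both and without knockdown replicate 2 for the EIF5A pair. EIF4H passed the test only with pseudogene reads added (-0.60). In that fit, where copies were summed too, 14 members rose and 5 fell. The EIF4A1 to EIF4A2 difference was 0.67 with pseudogene reads added. With the repeat number as a replicate block 16 members rose and 4 fell, as without it. Same-numbered libraries did not deviate together (correlations of -0.048, 0.067 and 0.054), so the numbers are taken as names only. The SE of single members limits what this depth shows, and a member that was not called may still have changed.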
